A study of Macaca mulatta with 6 samples.

Results

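The miRNAs miR-302, miR-367 and miR-371 to miR-373 were followed in whole testis of juvenile rhesus monkeys. Members were taken by name: every arm and letter variant of miR-302, miR-367, miR-371, miR-372 and miR-373 in the table of mature miRNA counts. The rule found 11 of 701 mature miRNAs. In the second table, which counts annotated small RNA genes, it found 8 of 3083 genes, the same-named precursors. All 6 animals were wild type. Of these, 3 received vehicle (animals 7, 9 and 11, aged 24, 14 and 15 months) and 3 received gonadotropin, meaning FSH plus LH given in pulses (animals 8, 10 and 12, aged 22, 14 and 15 months). The infusion ran for 48 h in both groups, and 1 library came from the right testis of each animal. Libraries are named by group and animal number.

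miRNAs of both clusters are best known from pluripotent stem cells, where the guide strands of miR-302, miR-372 and miR-373 share a seed, the stretch near the 5′ end that selects targets. They speed passage through the cell cycle by restraining inhibitors of cyclin-dependent kinases and are shut off as cells differentiate. miR-372 and miR-373 were described as potential oncogenes in testicular germ cell tumours, and serum miR-371a-3p is used as a marker of such tumours in humans. miR-367 lies in the miR-302 cluster but has a different seed. The question here is whether these miRNAs are present in the prepubertal testis, which still holds undifferentiated germ cells, and whether their counts differed after a pubertal hormone drive.

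The precursors of miR-302 and miR-367 lie on chromosome 5 within 684 bases (111570284 to 111570967, minus strand, rheMac8). In the order of the chromosome they are mir-367, mir-302d, mir-302a, mir-302c and mir-302b. The miR-371 to miR-373 precursors lie on chromosome 19 (49142068 to 49143052, plus strand, rheMac8). On the older build of the miRNA table, rheMac2, miR-371 has 2 precursor copies on that chromosome, at 59895652 to 59895721 and 59898391 to 59898460. Both copies were assigned the same arms, so counts of miR-371 could not be split between them.

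Counts totalled 1100190 to 1747355 per library in the miRNA table and 2146412 to 3170784 in the small RNA table. Levels are CPM (counts scaled to a common library size) after TMM scaling, a correction for the make-up of each library. Vehicle 7 stood apart: on the main axis of variation of the 433 tested miRNAs, which held 47.0% of the variance, it lay at -15.3 and the other libraries between -2.69 and 6.92. The testis-rich miR-506 to miR-514 family, taken as a marker of the tissue, was abundant throughout, with 14 of 14 arms tested and a summed level of 54039 to 76723 CPM. Markers of meiotic germ cells (miR-34b, miR-34c and miR-449) summed to 14.3 to 107.0 CPM, and 2 of their 7 arms passed the count filter.

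Both clusters were detected in each of the 6 testes, and the chromosome 19 cluster had far more reads. Of 4652 reads of the family over all libraries, 62.3% were miR-372-3p and 20.8% miR-373. The miR-302 and miR-367 arms together made up 6.19%. Mature miRNAs are of nearly equal length, so their CPM were compared without division by length. How evenly the libraries captured different miRNAs was not measured, so ranks and shares describe read counts. By mean level miR-372-3p ranked 136 and miR-373 ranked 212 of the 433 tested miRNAs, whose median was 111 CPM. miR-371-5p ranked 297, miR-371-3p 351, miR-302b 380 and miR-302d 399. The family made up 0.0356% to 0.0637% of the counts of a library.

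miR-372-3p, the leading member, was at 473, 209 and 432 CPM in vehicle 7, 9 and 11. In gonadotropin 8, 10 and 12 it was at 325, 345 and 276 CPM. The 3 gonadotropin libraries lay inside the vehicle range, which vehicle 9 widened downwards. Vehicle animals averaged 371.6 ± 142 CPM and treated animals 315 ± 35.3 CPM (SD, n = 3 each). The log2 fold change of -0.24 (SE 0.36) did not pass the edgeR quasi-likelihood test (adjusted p = 0.952), and it was 0.03 when library totals replaced TMM scaling. It was -0.45 without vehicle 9, -0.021 without vehicle 7 and -0.0062 without vehicle 11. The other arm, miR-372-5p, had 26 reads in all and did not pass the count filter.

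miR-373, encoded just downstream of miR-372, was at 159, 70.8 and 132 CPM in vehicle 7, 9 and 11. Gonadotropin 8, 10 and 12 had 116, 116 and 92.3 CPM. As for miR-372-3p, vehicle 9 was lowest, vehicle 7 highest and the treated libraries lay between. The log2 fold change was -0.16 (SE 0.35, adjusted p = 0.952, edgeR quasi-likelihood test). It was -0.35 without vehicle 9 and turned to 0.10 without vehicle 7, 0.02 without vehicle 11 and 0.11 with library totals.

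miR-371-5p departed from its neighbours. It was at 16.7, 35.4 and 43.1 CPM in vehicle 7, 9 and 11 and at 42.6, 43.4 and 38.5 CPM in gonadotropin 8, 10 and 12. Vehicle 7, the library with the most miR-372-3p under TMM scaling, had the least miR-371-5p, and the other 5 libraries lay close together. With library totals vehicle 11 had more miR-372-3p (562 of 1342237 counts) than vehicle 7 (594 of 1494673). The log2 fold change of 0.39 (SE 0.42) missed the threshold (adjusted p = 0.883 by edgeR's quasi-likelihood test) and was 0.09 without vehicle 7 and 0.74 without vehicle 11. miR-371-3p was at 15.9, 11.3 and 26.9 CPM without the hormones and at 23.3, 16.1 and 19.9 CPM with them, in the same order of animals. Its groups overlapped. The fitted log2 difference was 0.13 (SE 0.44, adjusted p = 0.952 by edgeR's quasi-likelihood test), and it was 0.62 without vehicle 11, -0.07 without vehicle 9 and -0.02 without gonadotropin 8.

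**Figure D1:**
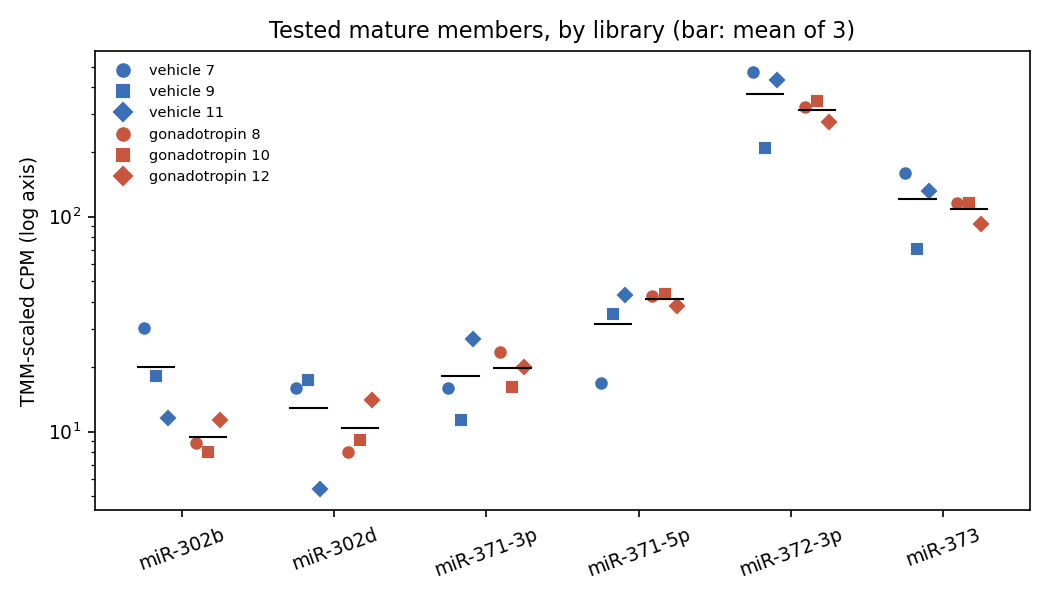
Level of the 6 mature members that passed the count filter, in TMM-scaled CPM on a log axis. Each point is 1 library, with blue for vehicle and red for gonadotropin, and each bar is the mean of 3. miR-302b has the higher points in vehicle, with vehicle 7 at 30.3 CPM, while vehicle 7 is lowest for miR-371-5p at 16.7 CPM.

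miR-302b, one of the guide strands of the pluripotency cluster, had the largest difference between groups among the tested members. Vehicle 7, 9 and 11 had 30.3, 18.1 and 11.5 CPM, and it was at 8.85, 8.05 and 11.3 CPM in gonadotropin 8, 10 and 12. Every vehicle library lay above every gonadotropin library, by a margin of 11.5 against 11.3 CPM, and the counts behind these values were 38, 24, 15, 11, 15 and 17 reads. The margin was lost with library totals, where vehicle 11 was at 11.2 and gonadotropin 12 at 12.1 CPM. The log2 fold change was -1.08 (SE 0.46), and it did not pass (unadjusted p = 0.0352, adjusted p = 0.702, edgeR quasi-likelihood test). Without vehicle 7 it was -0.65. In the authors' deposited table, from an exact test, the log2 fold change of miR-302b was -0.997 with an FDR of 0.759.

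miR-302d, of the same seed, was at 15.9, 17.3 and 5.38 CPM in vehicle 7, 9 and 11. It was at 8.04, 9.12 and 13.9 CPM in gonadotropin 8, 10 and 12. Vehicle 11 had the lowest level of all, so the groups overlapped. The log2 fold change was -0.31 (SE 0.49, adjusted p = 0.952, edgeR quasi-likelihood test), and it was -0.60 without vehicle 11 and turned to 0.06 without vehicle 9.

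The other members of the chromosome 5 cluster did not pass the count filter used here. In the authors' deposited table, from an exact test, the log2 fold change was -1.52 for miR-302a-3p (FDR 0.849). It was -0.69 for miR-302a-5p. miR-302a-3p had 13, 9 and 1 reads in vehicle 7, 9 and 11 and 1, 5 and 3 in gonadotropin 8, 10 and 12. miR-302a-5p had 3 to 9 reads in vehicle and 3 to 4 in gonadotropin libraries. miR-302c had 4 reads in all. miR-367 had 7 reads, 6 of them in vehicle 7 and 1 in vehicle 9, and none in the 3 gonadotropin libraries, which over the group allows a level of up to 0.650 CPM (3 counts). That limit covers counting error only, and no difference could be shown at this depth.

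Summed over its arms, the chromosome 5 cluster of miR-302 and miR-367 was at 70.1, 45.2 and 21.5 CPM in vehicle 7, 9 and 11 and at 20.1, 22.5 and 29.9 CPM in gonadotropin 8, 10 and 12. Vehicle 7 and vehicle 9 were high, and vehicle 11 lay among the treated libraries. The exact 95% Poisson interval was 56.2 to 86.4 CPM for vehicle 7 and 14.3 to 31.1 CPM for vehicle 11, so vehicle animals differed from each other by more than counting error. The group means of the log2 sums differed by -0.78, against a pooled SD of 0.64 within groups, and by -0.38 without vehicle 7. The chromosome 19 cluster was at 668, 331 and 636 CPM in the vehicle libraries and at 512, 523 and 429.6 CPM in the treated ones, a difference of -0.10 (log2) with a pooled SD of 0.41. That difference was -0.35 without vehicle 9, and turned to 0.09 without vehicle 7, 0.13 without vehicle 11, 0.0031 without gonadotropin 12 and 0.15 with library totals. In whole testis, fewer cells that carry a miRNA and less of it per cell cannot be told apart.

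Among the 6 tested mature members, none passed the adjusted threshold of 0.05, against 0.231% of all tested miRNAs. At an unadjusted p under 0.05 there was 1, miR-302b, lower with gonadotropin, where 2.31% of all miRNAs were lower at that level. DESeq2, limma voom and the edgeR exact test also called 0 members. The groups did not overlap in 1 member, and in 11.3% of all tested miRNAs. Values were lower in 4 members and higher in 2, with a median log2 fold change of -0.20, beside -0.06 over all 433. With library totals the median over all 433 moved to 0.19 and that of the members to 0.07, with 2 lower and 4 higher. With upper-quartile scaling the medians were -0.15 and -0.28. The 5 members that did not pass the filter are not in these counts.

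The precursor genes, a second count of the same libraries, gave like values for most members. Of 8 genes, 6 were tested, and none passed the adjusted threshold (0.139% of all 717 tested genes passed) or an unadjusted p under 0.05 (4.46% of all). The groups overlapped in all 6, while 8.23% of all tested genes had groups apart. mir-302b (ENSMMUG00000027058) was at 20.9, 10.6 and 6.40 CPM in vehicle 7, 9 and 11 and at 4.81, 6.07 and 7.34 CPM in gonadotropin 8, 10 and 12. Its groups overlapped through vehicle 11 and gonadotropin 12. The log2 fold change was -1.04 (SE 0.50, adjusted p = 0.998, edgeR quasi-likelihood test) and -0.46 without vehicle 7. For mir-302a (ENSMMUG00000027042) it was also -1.04 (SE 0.50), and -0.40 without vehicle 7. mir-371-2 (ENSMMUG00000039291) was at 19.2, 21.5 and 38.0 CPM in the vehicle libraries and at 34.1, 35.8 and 37.5 CPM in the treated ones, a log2 difference of 0.45 (SE 0.40). The value was -0.16 for mir-302d, -0.08 for mir-372 and 0.03 for mir-373, each with an SE over 0.40 and a sign that changed under at least 1 alternative.

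**Figure D2:**
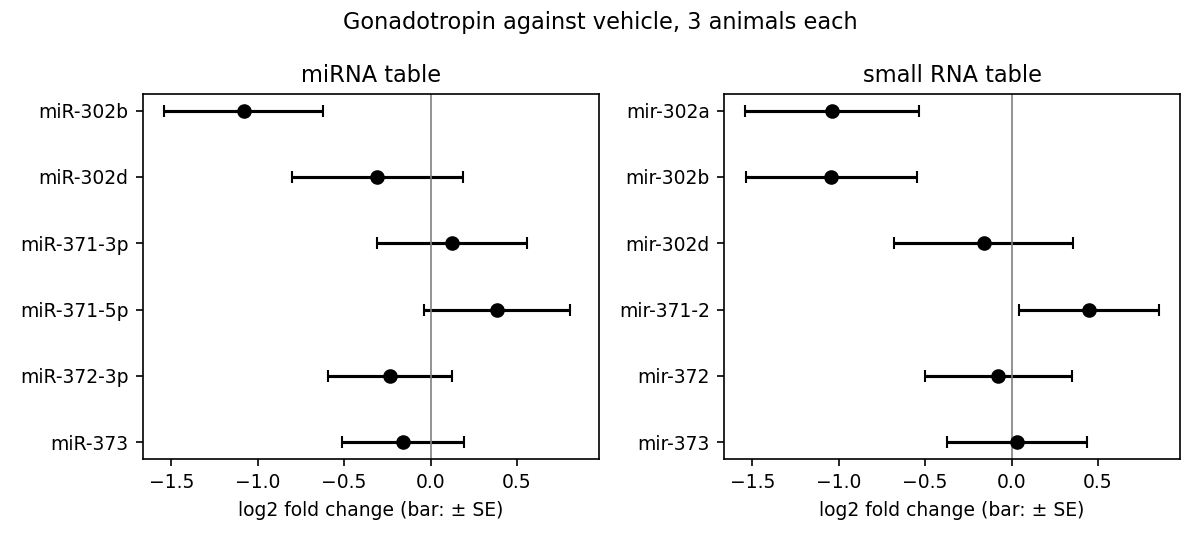
Log2 fold change, gonadotropin against vehicle, of the tested mature members (left) and precursor genes (right), with 1 SE to each side. The miR-302b arm and the mir-302a and mir-302b genes lie between -1.08 and -1.04, and the remaining members lie between -0.31 and 0.45.

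Within the chromosome 19 cluster, miR-373 and miR-372-3p kept a nearly constant proportion in the miRNA table. The share of miR-373 in the reads of this pair was 25.2%, 25.3% and 23.4% in vehicle 7, 9 and 11 and 26.3%, 25.2% and 25.05% in gonadotropin 8, 10 and 12. All 6 exact (Clopper-Pearson) 95% intervals overlapped between 22.6% and 26.7%, although the level of miR-372-3p itself ranged from 209 to 473 CPM. Pearson's r between their log2 levels was 0.99 over the 6 libraries, which share depth and scaling factor within each point. In the small RNA table the share of mir-373 was less even, at 28.7% to 36.2%, with gonadotropin 8 highest. There the interval of gonadotropin 8 (32.4% to 40.2%) did not overlap that of gonadotropin 10 (25.8% to 31.9%).

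The share of miR-371-5p against miR-372-3p was not constant. It was 3.41% in vehicle 7 (exact 95% interval 2.13% to 5.17%), 14.5% in vehicle 9 and 9.06% in vehicle 11. The gonadotropin libraries lay at 11.6%, 11.2% and 12.2%, inside the range of the vehicle libraries. The interval of vehicle 7 did not overlap that of any other library. The mir-371-2 gene gave the same order for vehicle 7, with 7.25% against 15.1% to 19.2% in the other libraries. Between the arms of miR-371, miR-371-5p took 51.2% to 75.8% of reads, and all intervals overlapped, whereas miR-372-3p took 97.9% to 99.6% of the miR-372 reads.

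The share of the chromosome 5 cluster in the family also set libraries apart, but not by treatment. It was 9.50% in vehicle 7 and 12% in vehicle 9, against 3.27% in vehicle 11 (exact 95% interval 2.19% to 4.70%). The gonadotropin libraries had 3.78%, 4.13% and 6.50%. Levels of the clusters did not follow each other in every library: vehicle 9 had the lowest chromosome 19 sum and the second highest chromosome 5 sum. Under TMM scaling, however, vehicle 7 was highest in both sums. As a percentage of library counts it was still highest for the chromosome 5 cluster. For the chromosome 19 cluster it had 0.0561%, below vehicle 11 (0.0616%) and gonadotropin 8 (0.0579%). Over the 6 libraries, Pearson's r of log2 levels was 0.65 between miR-302b and miR-302d and 0.18 between miR-302b and miR-372-3p. It was -0.92 between miR-302b and miR-371-5p, with vehicle 7 at the far end of both, and no test was made of these values.

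**Figure D3:**
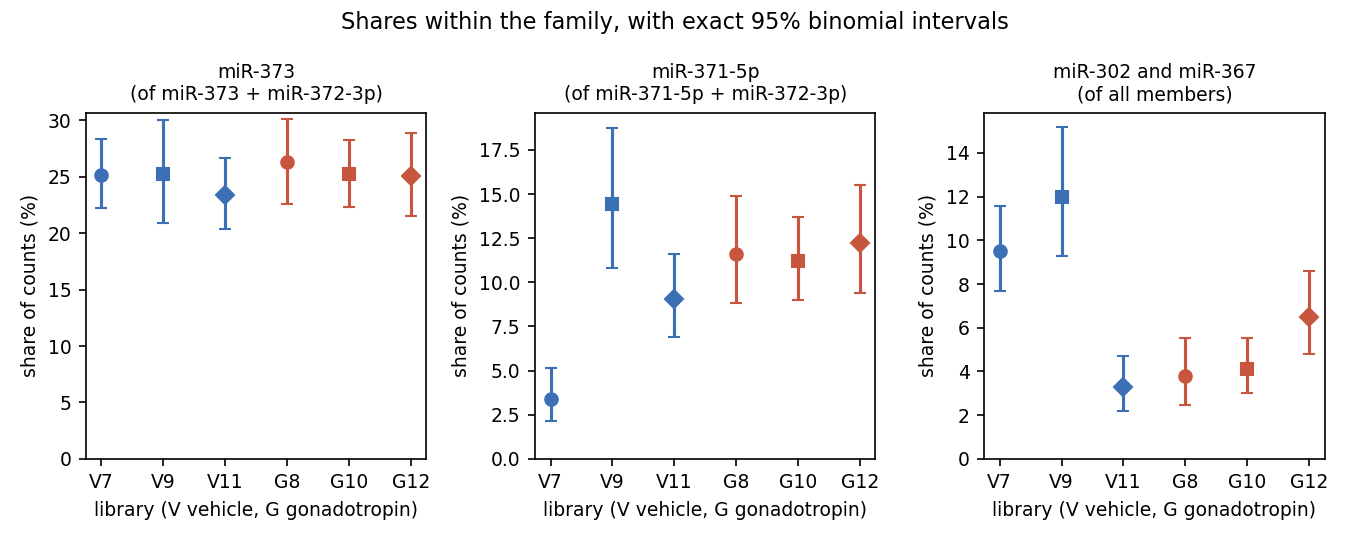
Share of reads (%) in each library for miR-373 within miR-373 plus miR-372-3p, for miR-371-5p within miR-371-5p plus miR-372-3p, and for miR-302 and miR-367 within all members. Bars are exact 95% binomial intervals. The first share stays at 23.4% to 26.3%, vehicle 7 is low in the second at 3.41%, and vehicle 7 and 9 are high in the third.

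The sum over all members, dominated by miR-372-3p, came to 738, 377 and 657 CPM in the libraries of vehicle 7, 9 and 11. Gonadotropin 8, 10 and 12 had 532, 545 and 459 CPM, all inside the vehicle range. The miRNAs outside the family whose log2 level followed this sum most closely were miR-33b-5p (Pearson's r = 0.95), miR-542-3p (0.94), miR-449a-5p (0.93), miR-9-3p (0.93) and miR-519d (0.90), out of 427 over 6 libraries. These are the highest of many values over few libraries and are given as a description. Of these, miR-519d belongs to the primate-specific cluster on chromosome 19.

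Related miRNAs gave the following values by the edgeR quasi-likelihood test, with none past the adjusted threshold. Of the miR-520 arms listed by name as sharing the seed, a row was matched for miR-520a-3p alone, at 33 reads over all libraries and too few for a test. The miR-17 family, whose seed is that of miR-302 shifted by one base and which is abundant in dividing cells, had 4 of 6 members lower and a median of -0.08 on the log2 scale, which turned to 0.20 with library totals. Its members with the smallest p were miR-106b-5p (-0.72, SE 0.42) and miR-20a-5p (-0.90, SE 0.58). The sum of the miR-17 family was 26920 CPM in vehicle 7 and 6924 to 11741 CPM in the other libraries. Vehicle 7 was thus highest here, as it was for the summed chromosome 5 cluster and miR-302b, but not for miR-302d.

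miRNAs reported in undifferentiated spermatogonia had 6 of 13 tested arms lower and 7 higher (median 0.04, turning to -0.04 with upper-quartile scaling, and 0.31 with library totals, where 3 were lower and 10 higher). Their summed level was 24257 to 27900 CPM in vehicle libraries and 28839 to 43111 CPM in treated ones, so the groups did not overlap. The most abundant arms weigh most in such a sum, while the tested arms went both ways. Groups also lay apart in 11.3% of all single tested miRNAs, and neither this sum nor that of the next list was tested. miR-221-3p, a regulator of the KIT receptor, had the smallest p (0.0485 unadjusted, 0.702 adjusted, edgeR quasi-likelihood test). Its log2 fold change was 0.77 (SE 0.35), with means of 264 CPM in vehicle and 452 CPM in treated libraries, a small part of the sum. The log2 fold change of miR-96 was -0.84 (SE 0.42). miRNAs that oppose pluripotency factors, the let-7 family with miR-98, miR-134, miR-145 and miR-296, had 17 of 21 tested arms lower (median -0.20), but 9 of 21 with library totals (median 0.03). let-7b-5p (-0.70, SE 0.30) and let-7a-5p (-0.66, SE 0.33) had the smallest p among them. For let-7b-5p the unadjusted p was 0.0378 (adjusted p = 0.702, edgeR quasi-likelihood test). Vehicle 7, 9 and 11 had 219834, 161990 and 151284 CPM of all arms of this list together. Gonadotropin 8, 10 and 12 had 103939, 147163 and 118857 CPM, with no overlap of the groups under TMM scaling. With library totals gonadotropin 10 lay above vehicle 9 and vehicle 11, so the groups overlapped. Vehicle 7 was thus highest in the chromosome 5 sum and in this sum.

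Markers of other cells were summed in each library, and their part in the values of the family was not tested. Duct epithelium (miR-200a, miR-200c, miR-141, miR-429 and miR-205) was at 223 CPM in vehicle 7 and 80.5 to 154 CPM elsewhere. Blood (miR-451, miR-144, miR-486, miR-223, miR-142 and miR-150) was lowest in vehicle 7 at 5140 CPM, against 6702 to 11066 CPM elsewhere. Of the tested blood arms 6 of 7 had higher values with gonadotropin (4 of 7 with upper-quartile scaling), and of the duct arms 3 of 5. miR-126 of endothelium was at 5534 to 9164 CPM in vehicle libraries and 6871 to 11264 CPM in treated ones. The muscle list, mostly miR-143 and miR-145 of smooth muscle, was at 23510 to 50444 CPM in vehicle libraries and 21488 to 40691 CPM in treated ones. No marker arm was past an unadjusted p of 0.05, and the summed levels of the groups overlapped in each of these marker lists.

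The tables differed most for mir-302a. Its gene count was 55, 30 and 20 in vehicle 7, 9 and 11 and 12, 22 and 22 in gonadotropin 8, 10 and 12, which is 2.44 to 4 times the sum of the miR-302a arms in the miRNA table. For mir-302d the ratio was 0.94 to 1.04, for mir-371-2 it was 1.01 to 1.102, for mir-372 it was 0.93 to 0.99 and for mir-302b it was 1.07 to 1.29. For mir-373 it was 1.18 to 1.56, highest in gonadotropin 8. The counts of the mir-302a gene came to 0.80 to 1.00 of the miR-302a arms plus miR-302b, a comparison chosen after the values were seen. They were also 0.97 to 1.25 times those of the mir-302b gene. The sources used here do not give how reads that match several places were counted, so the values of mir-302a and mir-302b are uncertain as separate measurements.

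**Figure D4:**
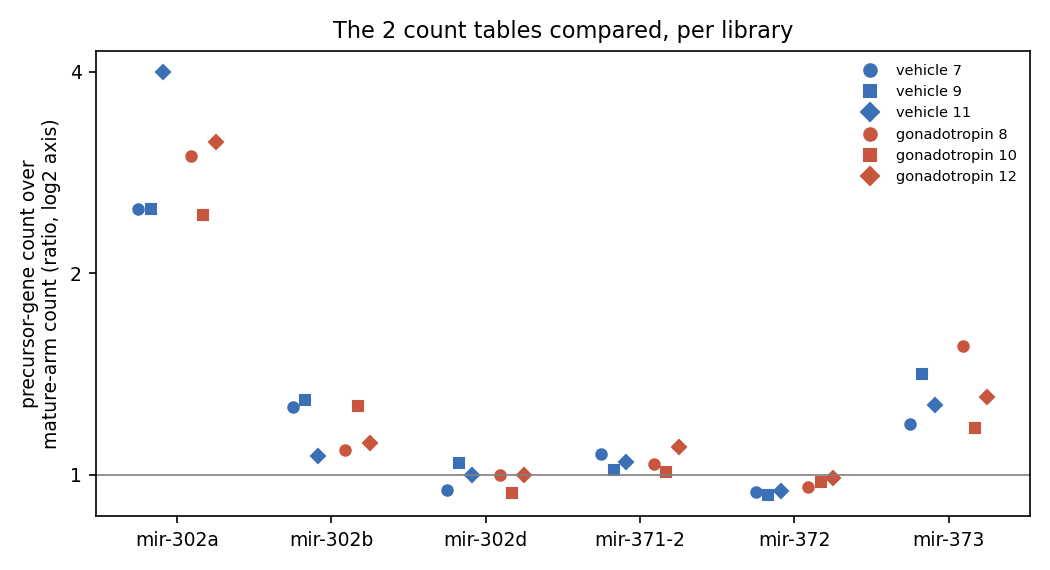
Count of each tested precursor gene in the small RNA table divided by the summed count of its arms in the miRNA table, per library, on a log2 axis. mir-302a lies at 2.44 to 4, mir-373 at 1.18 to 1.56, and the other genes between 0.93 and 1.29.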

How the data were processed

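Small RNA libraries of 6 testes were analysed from 2 tables of raw counts that the authors deposited. The count per mature miRNA came from miRDeep2 on rheMac2, per the labels, and the count per small RNA gene from HTSeq 0.6.1p1 on rheMac8, after cutadapt 1.9.1 and Bowtie 1.1.2, per the submitters' processing notes. The titles name Ion Torrent and the extraction protocol a stranded total RNA kit with Illumina steps; the sources used here do not say which applies. The deposited edgeR tables also hold log2 fold changes, p-values and CPM by the authors. Only their log2 fold changes and FDR for members, and the precursor names and rheMac2 positions of members, were used.

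Rows were kept with filterByExpr (minimum count 10), leaving 433 miRNAs and 717 genes. TMM-scaled counts entered the robust quasi-likelihood test of edgeR 4.0.16 (R 4.3.3), with Benjamini-Hochberg adjustment over each whole table and a threshold of 0.05. The SE is the absolute log2 fold change over the square root of F. The biological coefficient of variation was 35.1% and 46.2%. Shares carry Clopper-Pearson and sums Poisson intervals, which cover counting error only, since reads have no molecular identifiers. The scripts were tested on simulated data. Alternatives used limma 3.58.1, DESeq2 1.42.0, other scaling, no filter, age, and each library left out.

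Tested members were all named, with the 5 miRNAs most like their sum and the 2 with the smallest p from each list of related miRNAs. Members and lists were chosen with earlier results of these data known. For miR-202 and some other listed names no row was matched, so they were not analysed here. No sequence is printed.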

Additional observations from a re-analysis of the deposited data

How the results depend on the processing

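Over 16 alternatives, 0 mature members and 0 member genes were called, also without any 1 library (0 to 0 in each table). Of 192 values of tested members under alternatives, 172 kept their sign and 20 reversed. miR-302b ran from -1.26 to -0.65 (adjusted p 0.321 to 0.987) and had an unadjusted p under 0.05 in 7 alternatives. miR-371-5p (0.09 to 0.74), mir-302a (-1.32 to -0.40), mir-302b (-1.34 to -0.46) and mir-371-2 (0.27 to 0.84) kept their sign in all 16. The cause of the reversals was not tested, and each reversed value lay within 1 SE of 0. With library totals miR-372-3p was at 0.025, miR-373 at 0.106 and mir-372 at 0.101. mir-372 was at 0.054 with limma voom, 0.0043 with the age term and 0.025 with animals paired by age. mir-373 was at -0.018 with the size factors of DESeq2 in edgeR, -0.019 with upper-quartile scaling and -0.017 with the DESeq2 test. With single libraries left out, the lowest and highest values were -0.596 (without vehicle 11) and 0.055 (without vehicle 9) for miR-302d, and -0.070 (vehicle 9) and 0.622 (vehicle 11) for miR-371-3p. They were -0.355 (vehicle 9) and 0.096 (vehicle 7) for miR-373, -0.479 (vehicle 9) and 0.201 (vehicle 7) for mir-372, -0.491 (vehicle 11) and 0.076 (vehicle 7) for mir-302d, and -0.324 (vehicle 9) and 0.288 (vehicle 7) for mir-373.

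The count of all called miRNAs, 1 as reported, was 2 with library totals, 3 with DESeq2 and with the edgeR exact test, 0 with limma voom, without robust estimation, with the age term and with animals paired by age, and 0 to 4 without 1 library. The count of called small RNA genes, also 1, was 3 without a filter, with DESeq2 and with the edgeR exact test, 0 with limma voom and with animals paired by age, and 0 to 1 without 1 library. The difference of the log2 summed level of all members, -0.15, ran from -0.377 to 0.047 without 1 library. It turned to 0.099 with library totals and was -0.254 with upper-quartile scaling. The sample labels used here name no pairs, so animals were paired by rank of age. This joined vehicle 7, 9 and 11 (24, 14 and 15 months) with gonadotropin 8, 10 and 12 (22, 14 and 15 months). Depth left 5 mature members untested, each with 4 to 32 reads over all libraries, and 1 read was worth 0.572 to 0.909 CPM before scaling.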
